A study of Mus musculus with 26 samples.

Results

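Mouse embryonic stem cells exposed for 2 h to activin A were set against cells exposed for 2 h to BMP4, in both genotypes of the series. All 4 libraries of the activin A table were compared with all 4 libraries of the BMP4 table, so the comparison rests on 8 of the 26 libraries. The activin A groups were HMCES-KO cells and wild-type (WT) cells given 50 ng/ml activin A. The BMP4 groups were HMCES-KO cells and WT cells given 10 ng/ml BMP4. Each of the 4 groups held 2 libraries. All cells carried the C57BL/6 strain label and grew in serum medium on gelatin. HMCES is a DNA-binding protein known for shielding abasic sites, and HMCES-KO cells carry a knockout of its gene. The knockout lines KO1 and KO2 each gave 1 of the 2 HMCES-KO libraries of a group, and the spread in that genotype therefore includes the difference between lines. The labels do not call the 2 WT libraries of a group separate cultures. The p-values thus rest on library-to-library spread, part of which may be technical.

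Activin A and BMP4 are ligands of the TGF-beta family. Activin A, like Nodal, signals through type I receptors that phosphorylate SMAD2 and SMAD3, and BMP4 through type I receptors that phosphorylate SMAD1 and SMAD5. In mouse embryonic stem cells the BMP branch is known for inducing the Id genes, which help to hold back differentiation, and the Nodal and activin branch for inducing Lefty1, Lefty2 and Smad7, which feed back on the pathway. SB431542 inhibits the type I receptors that activin A uses, and LDN193189 inhibits those that BMP4 uses.

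Expression is given in TPM, reads per gene length scaled to 1000000 within a library, over the 13146 genes listed in both tables. Differences are activin A minus BMP4 on the log2(TPM + 1) scale with their standard error, from a limma fit to 12500 genes, and a gene was called at a Benjamini-Hochberg adjusted p under 0.05. On this scale the change of a gene with low TPM is understated. The authors scaled every library separately, and every level here is set across tables. Ligand and table are the same split, so a difference between ligands and a difference between tables cannot be told apart from these 8 libraries alone. Values of HMCES-KO libraries are given in the order KO1, KO2, and those of WT libraries in the order 1, 2.

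The depth recovered from the TPM was 4388597 to 4891605 reads in activin A libraries and 4400470 to 5291657 reads in BMP4 libraries. Embryonic stem cell markers (Pou5f1, Sox2, Nanog, Zfp42, Esrrb) summed to 14100 to 16200 TPM in activin A libraries and 15300 to 18300 TPM in BMP4 libraries. Of the 8 fibroblast markers 3 were listed in both tables, and they summed to 4.37 to 31.3 TPM under activin A and 14.5 to 40.2 TPM under BMP4, with Col1a1 under 1 TPM in every library. The 7 endoderm markers summed to 15.6 to 28.2 TPM under activin A and 35.8 to 75.2 TPM under BMP4, without overlap. The part of these marker levels in the results was not tested. In these bulk samples fewer cells of a type and less RNA per cell cannot be told apart. Hmces itself had 341 and 165 TPM in activin A HMCES-KO libraries and 663 and 656 TPM in activin A WT libraries, against 333 and 177 TPM in BMP4 HMCES-KO libraries and 507 and 531 TPM in BMP4 WT libraries. Each HMCES-KO library lay below each WT library, and transcript from the gene was still counted. The ligand difference of Hmces was 0.16 ± 0.24 (limma adjusted p = 0.78).

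A total of 479 genes told the ligands apart in the mean of both genotypes. Of the genes tested, 246 were higher under activin A (1.97%) and 233 were lower (1.86%), and 36 and 47 of them differed by at least 2-fold. The 4 activin A libraries did not overlap the 4 BMP4 libraries for 829 genes (6.63%), of which 300 were called. The count was 911 with the replicate number as a block, which pairs libraries of 1 knockout line. WT libraries share only a number. Block values given below for WT cells, or for a difference between genotypes, therefore rest in part on an arbitrary pairing. The count of 479 became 256 without activin A KO1, 207 without activin A KO2, 90 without activin A WT 1, 120 without activin A WT 2, 108 without BMP4 WT 1 and 110 without BMP4 WT 2. It became 612 without BMP4 KO1 and 644 without BMP4 KO2.

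Of the 19 tested members of the Nodal and activin target list, 2 rose under activin A (Smad7, Bhlhe40) and 2 fell (Lefty1 by 0.97 on the log2 scale, SE 0.21, limma adjusted p = 0.041, and Nodal), beside 1.97% and 1.86% of all genes. The list's median difference was 0.21, beside 0.01 over all genes. Of the 18 tested members of the BMP target list, 3 fell under activin A (Id1, Id2, Id3) and 1 rose (Smad7, which is on both lists), with a median of -0.09.

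Id3, an inhibitor of basic helix-loop-helix factors and a direct BMP target, had 132 and 173 TPM in activin A HMCES-KO libraries and 99.1 and 102 TPM in activin A WT libraries, against 363 and 579 TPM in BMP4 HMCES-KO libraries and 172 and 208 TPM in BMP4 WT libraries. It was lower under activin A within each genotype, while HMCES-KO and WT libraries sat at different levels. The difference was -1.25 ± 0.15 in the mean (limma adjusted p = 0.0037), -1.59 ± 0.21 in HMCES-KO cells (limma adjusted p = 0.019) and -0.90 ± 0.21 in WT cells (limma adjusted p = 0.068, and 0.0044 with the replicate block). The HMCES-KO call of Id3 was lost without any 1 of the libraries other than BMP4 KO1 and BMP4 KO2, with adjusted p up to 0.10.

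Id2, of the same family, had 274.5 and 279 TPM in activin A HMCES-KO libraries and 56.1 and 55.8 TPM in activin A WT libraries, against 328 and 583 TPM in BMP4 HMCES-KO libraries and 168 and 156 TPM in BMP4 WT libraries. Both genotypes were lower under activin A, and the WT groups were the farther apart on the log2 scale. The mean difference was -1.09 ± 0.15 (limma adjusted p = 0.0072), with -0.66 ± 0.21 in HMCES-KO cells (limma adjusted p = 0.24) and -1.52 ± 0.21 in WT cells (limma adjusted p = 0.011). The difference between genotypes was 0.86 ± 0.30 (limma adjusted p = 0.44), so it was not shown to differ. The mean call was lost without BMP4 WT 1 (adjusted p = 0.0505) and the WT call without any 1 of the 4 WT libraries (up to 0.12).

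Id1 had 1707 and 1439 TPM in activin A HMCES-KO libraries and 1537 and 1564 TPM in activin A WT libraries, against 3083 and 4371 TPM in BMP4 HMCES-KO libraries and 1246 and 1263 TPM in BMP4 WT libraries. The HMCES-KO libraries were low under activin A and high under BMP4, while the WT libraries were slightly the higher under activin A. The difference was -1.23 ± 0.15 in HMCES-KO cells (limma adjusted p = 0.015) and 0.30 ± 0.15 in WT cells (limma adjusted p = 0.35). The difference of -1.53 ± 0.21 between the genotypes did not pass (limma adjusted p = 0.079, and 0.035 with the replicate block). The HMCES-KO call was lost without activin A KO1, activin A KO2, BMP4 WT 1 or BMP4 WT 2, with adjusted p up to 0.10. The mean call (-0.46 ± 0.10, limma adjusted p = 0.046) was lost without each library other than BMP4 KO1 and BMP4 KO2, with adjusted p up to 0.17.

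Smad7, the inhibitory SMAD that both branches induce, had 136 and 136 TPM in activin A HMCES-KO libraries and 176 and 184 TPM in activin A WT libraries, against 85.1 and 85.8 TPM in BMP4 HMCES-KO libraries and 119 and 129 TPM in BMP4 WT libraries. Every activin A library lay above every BMP4 library. The mean difference was 0.60 ± 0.07 (limma adjusted p = 0.00295), with 0.66 ± 0.10 in HMCES-KO cells and 0.53 ± 0.10 in WT cells (limma adjusted p = 0.025 and 0.029). The mean call remained without any 1 library, while the HMCES-KO call was lost without any 1 library other than BMP4 KO2 (up to 0.15) and the WT call without any 1 of the WT libraries (up to 0.22).

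Lefty2 and Lefty1 encode secreted antagonists of Nodal and stood differently in the genotypes. They are neighbouring paralogues on chromosome 1 (180893108 to 180899107 and 180935022 to 180938401 in GRCm38.p6), so reads may have been split between them and their separate levels are uncertain. Lefty2 had 170 and 182 TPM in activin A HMCES-KO libraries and 66.9 and 72.5 TPM in activin A WT libraries, against 107 and 102 TPM in BMP4 HMCES-KO libraries and 143 and 158 TPM in BMP4 WT libraries. The HMCES-KO libraries were higher under activin A and the WT libraries lower, with no overlap in either genotype. The difference was 0.75 ± 0.11 in HMCES-KO cells (limma adjusted p = 0.022) and -1.10 ± 0.11 in WT cells (limma adjusted p = 0.0027). The HMCES-KO call was lost without any 1 library other than BMP4 KO1 and BMP4 KO2 (adjusted p up to 0.16), and the WT call without BMP4 WT 2 (0.0599).

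The difference between those values, 1.84 ± 0.15, made Lefty2 the 1 gene of 12500 called for a ligand difference that differed between genotypes (0.008%; limma adjusted p = 0.0074). At an unadjusted p under 0.05 there were 1120 such genes, and the replicate block called 27. The Lefty2 call was lost without activin A KO1, activin A WT 1, BMP4 WT 1 or BMP4 WT 2, with adjusted p up to 0.12. Lefty1 had 188 and 229 TPM in activin A HMCES-KO libraries and 54.9 and 52.2 TPM in activin A WT libraries, against 115 and 261 TPM in BMP4 HMCES-KO libraries and 235 and 263 TPM in BMP4 WT libraries. The activin A WT libraries were the low ones, and the HMCES-KO groups overlapped. Lefty1 fell under activin A by 2.20 on the log2 scale in WT cells (SE 0.30, limma adjusted p = 0.011). That call was lost without any 1 of the 4 WT libraries. In HMCES-KO cells Lefty1 was not called, and its difference was a rise (0.26 ± 0.30, limma adjusted p = 0.78). The mean call of Lefty1 was lost without any 1 library other than BMP4 KO1 and BMP4 KO2 (up to 0.16). Its difference between genotypes was 2.46 ± 0.42 (limma adjusted p = 0.17, and 0.025 with the replicate block).

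**Figure D1:**
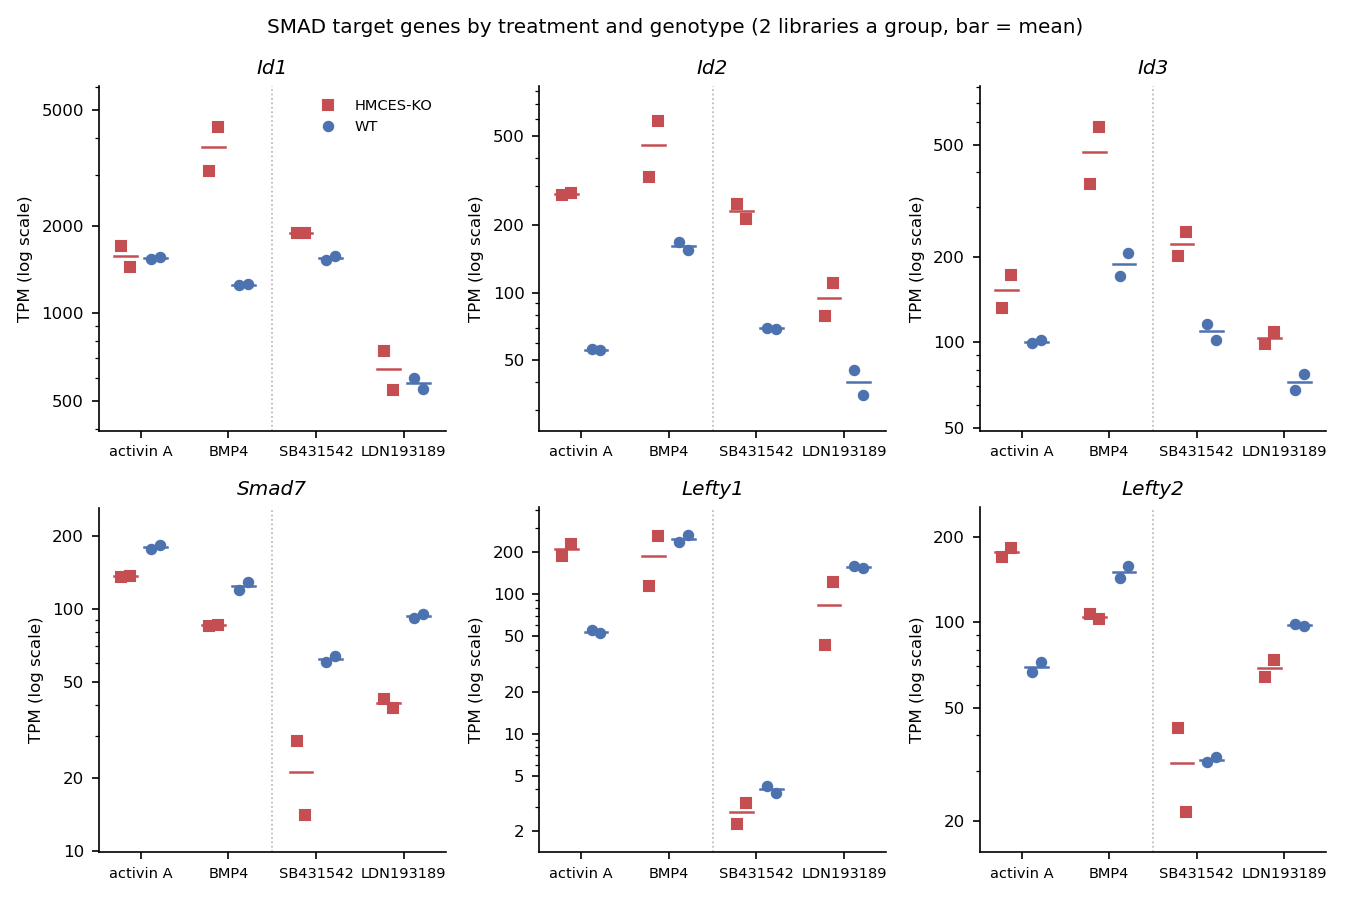
TPM on a log axis of 6 SMAD target genes in each library, by treatment along the x axis and by genotype (squares HMCES-KO, circles WT; short bars are means of 2 libraries). Id3 is lower under activin A than under BMP4 in both genotypes, Lefty2 is higher under activin A in HMCES-KO cells and lower in WT cells, and Lefty1 is at 2.23 to 4.22 TPM under SB431542.

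Nodal itself, the ligand that signals through the activin receptors, had 316 and 350 TPM in activin A HMCES-KO libraries and 372 and 394 TPM in activin A WT libraries, against 422 and 478 TPM in BMP4 HMCES-KO libraries and 463 and 509 TPM in BMP4 WT libraries. All activin A libraries were below all BMP4 libraries (-0.39 ± 0.07, limma adjusted p = 0.023, lost without activin A KO1 or any 1 of the WT libraries, up to 0.12). Bhlhe40, a transcriptional repressor, had 66.8 and 77 TPM in activin A HMCES-KO libraries and 117 and 186 TPM in activin A WT libraries, against 32.4 and 59.2 TPM in BMP4 HMCES-KO libraries and 62.6 and 63 TPM in BMP4 WT libraries (0.96 ± 0.20, limma adjusted p = 0.034, lost without any 1 library other than BMP4 KO1 and BMP4 KO2, up to 0.13). The other 14 members of the Nodal and activin list besides Lefty2 did not pass in any contrast. They include Skil, a SMAD co-repressor (0.03 ± 0.17), Pmepa1, which sequesters SMADs (0.37 ± 0.10, limma adjusted p = 0.086, and 0.034 with the replicate block) and the Nodal co-receptor Tdgf1 (0.28 ± 0.15). On the BMP list, the inhibitory Smad6 (0.48 ± 0.23), the homeobox genes Msx1 (0.42 ± 0.30) and Msx2 (-0.38 ± 0.29), Id4 (-0.44 ± 0.20) and the phosphatase Dusp9 (-0.07 ± 0.18) did not pass.

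Among the other family members, 2 of 16 tested ligands rose and 2 fell, 2 of 14 antagonists and co-receptors fell, none of 9 receptors passed, and Smad7 was the 1 call among 17 SMADs and SMAD regulators. The shares over all genes were 1.97% higher and 1.86% lower. Bmp4 had 492 and 525 TPM in activin A HMCES-KO libraries and 935 and 899 TPM in activin A WT libraries, against 556 and 578 TPM in BMP4 HMCES-KO libraries and 598 and 540 TPM in BMP4 WT libraries. The activin A WT libraries stood above the rest. The mean difference was 0.27 ± 0.06 (limma adjusted p = 0.044, lost without any 1 library other than BMP4 KO2, up to 0.18), with values apart by genotype (0.69 ± 0.08 in WT cells, limma adjusted p = 0.0077, up to 0.12 without 1 of the WT libraries, against -0.16 ± 0.08 in HMCES-KO cells, limma adjusted p = 0.48). The difference between genotypes was -0.85 ± 0.12 (limma adjusted p = 0.079, and 0.029 with the replicate block). Tgfb1 was higher under activin A (0.67 ± 0.11, limma adjusted p = 0.017). Gdf15, a stress-responsive member of the family, was lower (-1.61 ± 0.26, limma adjusted p = 0.014), as was Fst, which binds and blocks activin (-1.43 ± 0.28, limma adjusted p = 0.029). Tgfb1, Gdf15 and Fst each lost the call without any 1 of the WT libraries, Tgfb1 also without activin A KO1 and Fst also without activin A KO2, with adjusted p up to 0.12. Transcripts of the receptors Acvr2b and Bmpr2 (-0.21 ± 0.18 and 0.11 ± 0.22) and of Smad1, Smad2, Smad3, Smad4 and Smad5 (-0.20 to 0.11) did not pass.

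The 2 inhibitor tables give a second pair in which the same branches are set against each other without sharing a library. SB431542 (10 µM, 2 h) was compared with LDN193189 (50 nM, 2 h) in the same genotypes and group sizes, in a fit to all 16 treated libraries and 12608 genes. This comparison was chosen after seeing the data. A ligand and the inhibitor of its own receptors act on that branch in opposite senses. The labels do not say whether activin A and SB431542 libraries, or BMP4 and LDN193189 libraries, were handled together, so treatment and handling cannot be told apart for genes that differ with the same sign in both comparisons. It called 412 genes (3.27%), of which 188 were higher under SB431542 and 224 lower. Of the 479 genes that told activin A and BMP4 apart, 447 had the same sign in SB431542 minus LDN193189, which is 93.3%, beside 68.4% of the 12392 genes in both fits. The part of shared handling in these 479 calls was not tested. There were 215 genes called in both with the same sign, which is 44.9% of the ligand calls and 52.2% of the inhibitor calls. Across the 12392 genes the 2 differences had a Pearson r of 0.556, as a description, and genes are not independent replicates. The genes called higher under activin A had a median ligand difference of 0.58 and a median inhibitor difference of 0.39. For the genes called lower the medians were -0.62 and -0.43.

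The remaining 32 ligand calls had opposite signs, and 4 of them were called with opposite signs: Id1, Id2, Id3 and Smad7. Under SB431542, Id1 had 1891 and 1895 TPM in HMCES-KO libraries and 1526 and 1568 TPM in WT libraries, against 739 and 545 TPM in LDN193189 HMCES-KO libraries and 599.5 and 546 TPM in LDN193189 WT libraries. The LDN193189 libraries were the low ones in both genotypes. The inhibitor differences were 1.50 ± 0.11 for Id1, 1.04 ± 0.15 for Id2 and 0.84 ± 0.14 for Id3 (limma adjusted p = 5.5e-06, 0.0019 and 0.0036). Smad7 had 28.4 and 14.1 TPM in SB431542 HMCES-KO libraries and 60.6 and 63.6 TPM in SB431542 WT libraries, against 42.4 and 39.1 TPM in LDN193189 HMCES-KO libraries and 91.6 and 95.5 TPM in LDN193189 WT libraries (-0.78 ± 0.15, limma adjusted p = 0.01).

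The ligand difference minus the inhibitor difference was tested in the same fit, and 7 of 12608 genes passed (0.0555%). They were Id1 (-1.97 ± 0.15, limma adjusted p = 0.000103), Id2 (-2.13 ± 0.22, limma adjusted p = 0.00089), Id3 (-2.09 ± 0.19, limma adjusted p = 0.00042), Lefty1 (3.69 ± 0.39, limma adjusted p = 0.0011), Smad7 (1.38 ± 0.21, limma adjusted p = 0.041), Epha2 (0.63 ± 0.10, limma adjusted p = 0.041) and Slc35g3 (-2.46 ± 0.39, limma adjusted p = 0.048). Epha2 encodes an ephrin receptor and is on none of the SMAD target lists, and Slc35g3 was at most 7.7 TPM in any library of the 4 tables. Lefty1 had 2.23 and 3.21 TPM in SB431542 HMCES-KO libraries and 4.22 and 3.77 TPM in SB431542 WT libraries, against 43.1 and 123 TPM in LDN193189 HMCES-KO libraries and 160 and 155 TPM in LDN193189 WT libraries. Every SB431542 library was below every other treated library for Lefty1. Id1, Id2, Id3 and Lefty1 kept their calls in all 24 alternatives, and Smad7, Epha2 and Slc35g3 lost theirs in most settings that left out 1 library. Within HMCES-KO cells alone 8 genes passed this test, Id1, Id2, Id3, Lefty1 and Lefty2 among them, and within WT cells limma called 0, with 543 genes at an unadjusted p under 0.05.

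**Figure D2:**
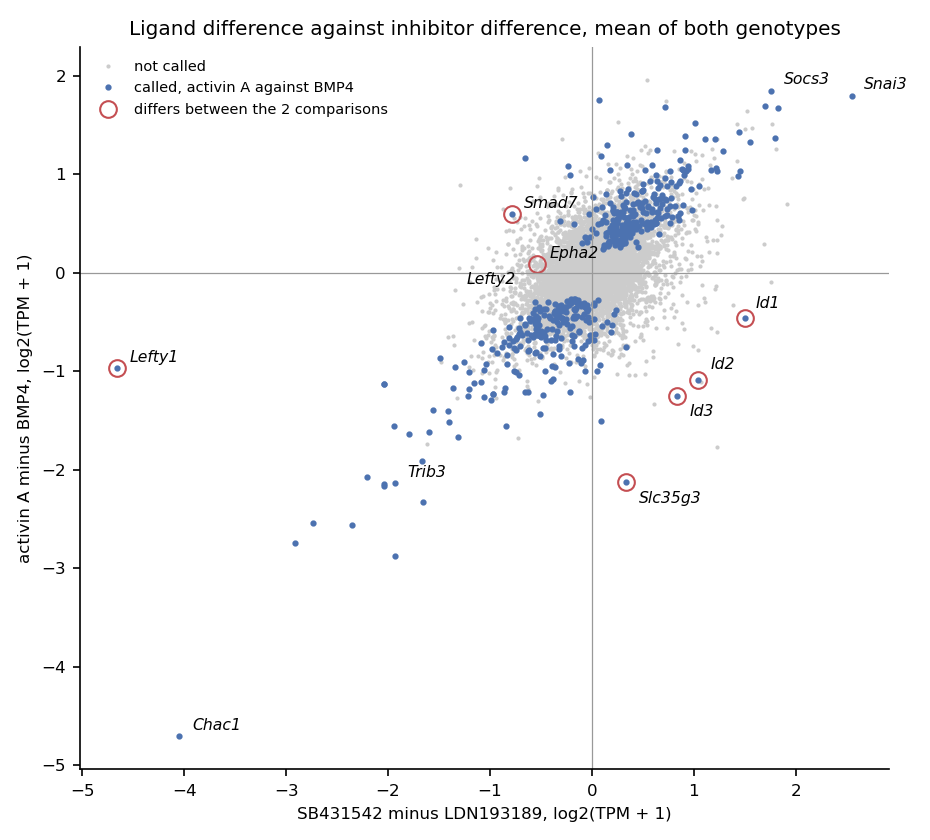
Each point is a gene, with SB431542 minus LDN193189 on the x axis and activin A minus BMP4 on the y axis (log2(TPM + 1), mean of both genotypes). Of the 479 called genes (blue), 447 lie in the 2 quadrants of like sign, and the 7 ringed genes are those whose 2 differences differed.

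The genes named below among the 10 largest rises and falls had the same sign between the inhibitors, apart from Slc35g3. The integrated stress response is the pathway in which phosphorylation of eIF2 raises translation of the transcription factor ATF4, which then induces genes such as Chac1 and Trib3. Of the 13 tested members of that list, 6 fell under activin A and none rose (Chac1, Trib3, Atf4, Gpt2, Sesn2, Psat1), with a median of -0.61. Of all genes, 1.86% fell and 1.97% rose. Of the 12 members tested in the 4 tables, 6 fell in SB431542 minus LDN193189 and none rose, beside 224 and 188 of all 12608 genes. Their median was -0.58.

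Chac1, which degrades glutathione, had 20.25 and 24.5 TPM in activin A HMCES-KO libraries and 16.15 and 9.93 TPM in activin A WT libraries, against 479 and 428.5 TPM in BMP4 HMCES-KO libraries and 444 and 516 TPM in BMP4 WT libraries. It was 26.1-fold lower under activin A (-4.71 ± 0.14, limma adjusted p = 1.28e-06), with no library near the other group. Under SB431542 it had 30.25 and 27.5 TPM in HMCES-KO libraries and 13.6 and 19.9 TPM in WT libraries, against 451 and 309 TPM in LDN193189 HMCES-KO libraries and 323 and 444 TPM in LDN193189 WT libraries. The inhibitor difference was -4.05 ± 0.17, and the test of the difference between the 2 comparisons gave -0.66 ± 0.24 (limma adjusted p = 0.99).

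Trib3, a pseudokinase that restrains ATF4, had 74.4 and 96.2 TPM in activin A HMCES-KO libraries and 83.8 and 75.95 TPM in activin A WT libraries, against 390.5 and 364 TPM in BMP4 HMCES-KO libraries and 338 and 366 TPM in BMP4 WT libraries (-2.13 ± 0.09, limma adjusted p = 1.54e-05). The difference was -2.14 ± 0.13 in HMCES-KO cells and -2.13 ± 0.13 in WT cells. Atf4 had 1989 and 1689 TPM in activin A HMCES-KO libraries and 1533 and 1668 TPM in activin A WT libraries, against 4644 and 4078 TPM in BMP4 HMCES-KO libraries and 3542 and 3933 TPM in BMP4 WT libraries (-1.24 ± 0.08, limma adjusted p = 0.00011). Gpt2, an alanine aminotransferase, was lower by a like amount (-1.18 ± 0.14, limma adjusted p = 0.0034), as were Sesn2 (-0.71 ± 0.10, limma adjusted p = 0.0091) and the serine synthesis enzyme Psat1 (-0.61 ± 0.09, limma adjusted p = 0.010). Sesn2 lost its call without activin A WT 2, BMP4 WT 1 or BMP4 WT 2 (up to 0.062) and Psat1 without any 1 of the WT libraries (up to 0.067), so that 4 of the 6 falls remained called without any 1 library. The inhibitor differences were -1.93 ± 0.09 for Trib3, -0.97 ± 0.08 for Atf4 and -1.21 ± 0.14 for Gpt2.

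Chac1 and Trib3 were 2 of the 10 largest falls. Nupr1, a stress-induced chromatin protein, had 3.86 and 3.02 TPM in activin A HMCES-KO libraries and 1.64 and 0.474 TPM in activin A WT libraries, against 35.7 and 26.1 TPM in BMP4 HMCES-KO libraries and 10.7 and 18.3 TPM in BMP4 WT libraries (-2.88 ± 0.26, limma adjusted p = 0.00094). The stress-induced transcription factor Atf3 (-2.56 ± 0.39), the endoplasmic reticulum protein Herpud1 (-2.16 ± 0.24), Adm2 (-2.74 ± 0.30), the lipase inhibitor G0s2 (-2.54 ± 0.17), Ubap1l (-2.33 ± 0.19), the proteoglycan Srgn (-2.15 ± 0.24) and Slc35g3 (-2.12 ± 0.24) complete the 10. The inhibitor difference was -1.66 to -2.91 for 7 of these 8 and 0.34 for Slc35g3. Of the 10 falls, 9 stayed called without any 1 library, and Atf3 did not (0.071 at most, without BMP4 WT 1 or BMP4 WT 2).

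The promoter windows of 4 of these falling genes are printed because they fell together and, chosen after their values and matches were seen, hold the letters TGATGNAA (either strand), the core of the composite element that ATF4 is known to bind. Each window is the RefSeq promoter sequence in GRCm38.p6, 250 bases before to 50 after the start of the gene, on the gene's strand, with the match in capitals. Chac1 is at chr2:119350992-119351291 on the plus strand, Nupr1 at chr7:126625421-126625720 on the minus strand, Trib3 at chr2:152344011-152344310 on the minus strand and Atf3 at chr1:191183284-191183583 on the minus strand.
Chac1: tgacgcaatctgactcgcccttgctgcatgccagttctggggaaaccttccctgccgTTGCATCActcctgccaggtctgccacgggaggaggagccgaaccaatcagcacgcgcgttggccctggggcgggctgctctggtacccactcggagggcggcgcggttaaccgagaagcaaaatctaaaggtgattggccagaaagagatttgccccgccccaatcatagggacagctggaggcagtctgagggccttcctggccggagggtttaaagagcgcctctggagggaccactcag
Nupr1: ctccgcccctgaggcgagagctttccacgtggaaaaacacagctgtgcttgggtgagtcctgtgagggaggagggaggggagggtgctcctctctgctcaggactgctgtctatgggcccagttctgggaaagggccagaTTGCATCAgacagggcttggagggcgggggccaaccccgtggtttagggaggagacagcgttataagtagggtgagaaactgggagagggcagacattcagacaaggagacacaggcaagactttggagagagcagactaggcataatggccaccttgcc
Trib3: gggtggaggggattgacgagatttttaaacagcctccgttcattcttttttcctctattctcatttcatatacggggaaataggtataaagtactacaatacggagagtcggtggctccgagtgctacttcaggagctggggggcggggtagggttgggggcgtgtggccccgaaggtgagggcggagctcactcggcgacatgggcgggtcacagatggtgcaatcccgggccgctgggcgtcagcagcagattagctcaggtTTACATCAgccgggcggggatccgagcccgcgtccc
Atf3: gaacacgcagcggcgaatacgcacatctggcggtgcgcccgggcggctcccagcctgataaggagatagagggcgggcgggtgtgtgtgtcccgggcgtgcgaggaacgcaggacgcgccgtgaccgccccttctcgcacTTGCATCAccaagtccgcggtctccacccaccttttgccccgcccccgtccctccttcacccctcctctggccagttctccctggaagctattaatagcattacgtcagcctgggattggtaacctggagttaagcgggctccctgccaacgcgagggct
The match begins at -193 in Chac1, -110 in Nupr1, 15 in Trib3 and -110 in Atf3, counted from the start of the gene. These letters occurred in 21 of 188 windows of genes called lower under activin A (11.2%) and in 8 of 192 windows of genes called higher (4.17%). They were in 252 of 9984 windows of the tested genes (2.52%) and in 1304 of all 32851 windows (3.97%). In the integrated stress response list 4 of 12 windows held them (Asns, Trib3, Chac1, Vldlr). A match describes the letters of the window and is not a bound site.

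**Figure D3:**
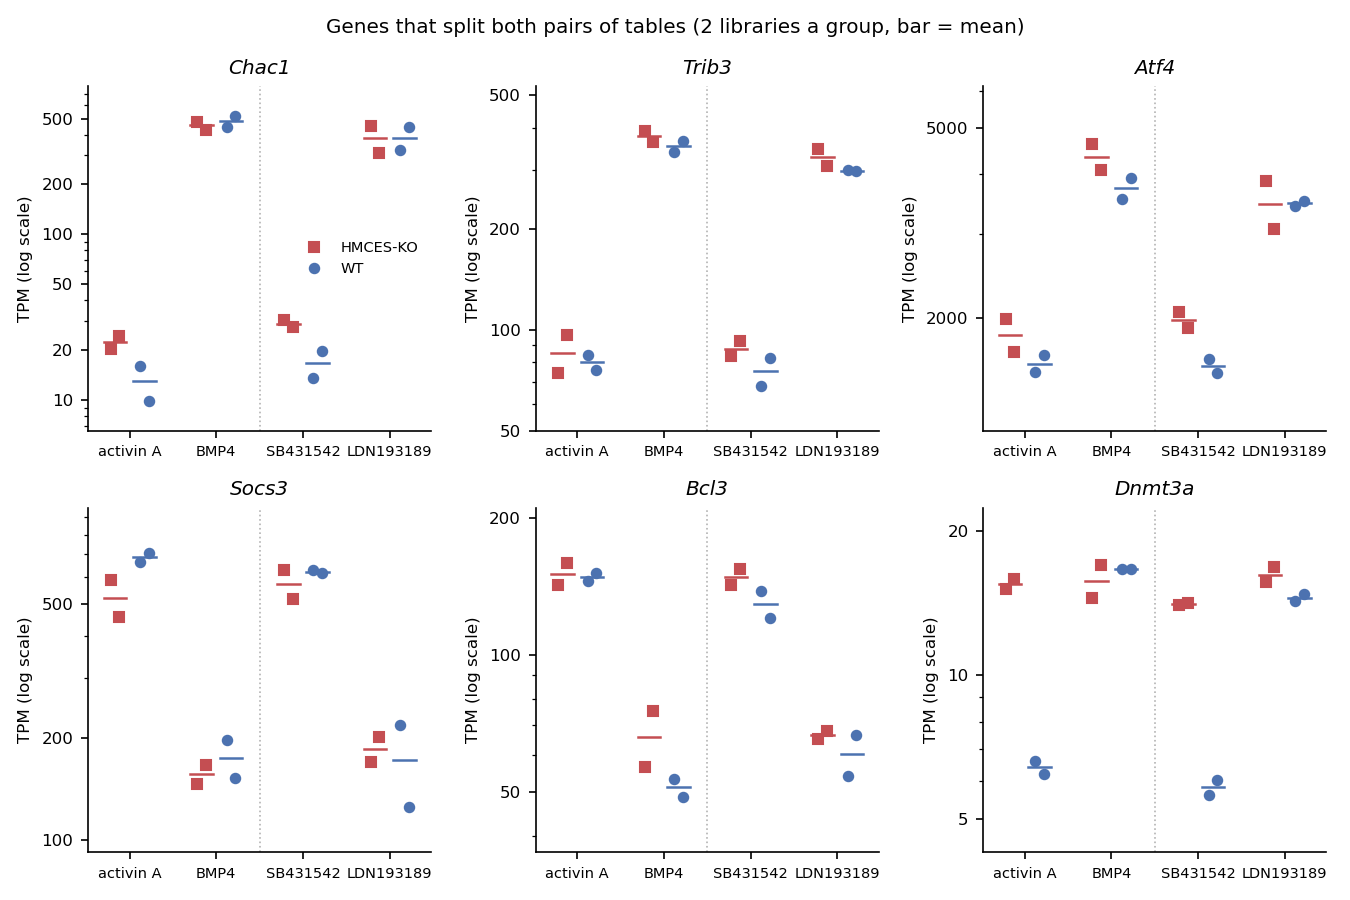
TPM on a log axis of 6 genes in each library, by treatment along the x axis and by genotype (squares HMCES-KO, circles WT; short bars are means of 2 libraries). Chac1, Trib3 and Atf4 are low under activin A and SB431542 and high under BMP4 and LDN193189, Socs3 and Bcl3 show the reverse order, and Dnmt3a follows the first order in WT cells, at 6.63 and 6.21 TPM under activin A.

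Socs3, a feedback inhibitor of cytokine signalling through JAK and STAT proteins, had the largest rise among the called genes whose libraries did not overlap. It had 587 and 455 TPM in activin A HMCES-KO libraries and 665 and 706 TPM in activin A WT libraries, against 146.5 and 167 TPM in BMP4 HMCES-KO libraries and 197 and 152 TPM in BMP4 WT libraries. The difference was 3.6-fold (1.85 ± 0.11, limma adjusted p = 0.00011), with 1.72 ± 0.15 in HMCES-KO cells and 1.98 ± 0.15 in WT cells. Under SB431542 it had 630 and 515.5 TPM in HMCES-KO libraries and 629 and 615 TPM in WT libraries, against 170 and 201 TPM in LDN193189 HMCES-KO libraries and 219 and 125 TPM in LDN193189 WT libraries. The inhibitor difference was 1.76 ± 0.15 (limma adjusted p = 3.1e-05).

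Other genes among the 10 largest rises were Snai3, a zinc finger repressor of the Snail family (1.80 ± 0.15), the Wnt-induced factor Sp5 (1.70 ± 0.38), Cd248 (1.69 ± 0.24), the immediate early gene Ier3 (1.68 ± 0.31), Hs3st3b1 (1.52 ± 0.17), Rasd1 (1.41 ± 0.23), the AP-1 subunit Fosl1 (1.39 ± 0.28) and Sfn, the 14-3-3 sigma protein (1.36 ± 0.15). Their limma adjusted p ran from 0.00062 to 0.044. Sp5 lost the call without any 1 library other than BMP4 KO2, Fosl1 without any but BMP4 KO1 and BMP4 KO2, and Ier3 without activin A KO1, KO2 or WT 2 or BMP4 WT 1 or WT 2. Rasd1 lost it without any 1 of the WT libraries and Cd248 without activin A WT 1 or BMP4 WT 1, with adjusted p up to 0.15 over these genes. Socs3, Snai3, Hs3st3b1 and Sfn kept it without any 1 library. The inhibitor differences of the genes listed here were all above 0, from 0.38 (Rasd1) to 2.55 (Snai3).

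The Socs3 window is printed because it holds TTCNNNGAA, the palindrome that STAT proteins are known to bind, in capitals at -154. It is at chr11:117969317-117969616 on the minus strand, inside the RefSeq span of the gene (117966079 to 117970336), so its start is not the outermost end of that span.
Socs3: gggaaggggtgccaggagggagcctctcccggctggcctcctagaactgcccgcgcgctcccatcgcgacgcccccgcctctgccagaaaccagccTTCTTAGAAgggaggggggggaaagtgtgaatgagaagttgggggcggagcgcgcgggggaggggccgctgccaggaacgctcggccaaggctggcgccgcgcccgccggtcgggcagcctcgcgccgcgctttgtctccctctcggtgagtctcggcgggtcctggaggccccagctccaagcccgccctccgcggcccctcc
The same letters were in 21 of 192 windows of genes called higher (10.9%), 14 of 188 windows of genes called lower (7.45%), 7.92% of the windows of tested genes and 8.3% of all windows. The Nupr1 window also holds them, starting 18 bases from the start of its capitals and without overlap.

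Pluripotency and lineage genes changed in part. Of 17 naive pluripotency genes, 4 rose under activin A and none fell (Socs3, Prdm14, Gbx2, Nr5a2), beside 1.97% and 1.86% of all genes. The median was 0.22. Between the inhibitors 4 of the 17 were higher under SB431542 and 1 lower, beside 188 and 224 of all 12608 genes. Their inhibitor median was 0.24. Prdm14, a repressor that guards the naive state, had 83.3 and 62.1 TPM in activin A HMCES-KO libraries and 89.9 and 91.7 TPM in activin A WT libraries, against 34.5 and 35 TPM in BMP4 HMCES-KO libraries and 36.4 and 44.2 TPM in BMP4 WT libraries. All activin A libraries lay above all BMP4 libraries (1.09 ± 0.12, limma adjusted p = 0.0022). Gbx2 rose by less (0.51 ± 0.06, limma adjusted p = 0.0046), and Nr5a2 had a call that was lost without any 1 library other than BMP4 KO2 (0.40 ± 0.09, limma adjusted p = 0.045, up to 0.18). Among 10 general pluripotency genes Dppa5a fell (-0.45 ± 0.08, limma adjusted p = 0.017, up to 0.091 without activin A WT 1, activin A WT 2 or BMP4 WT 1). Pou5f1 did not pass (-0.20 ± 0.06, limma adjusted p = 0.096, and 0.022 with the replicate block).

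Of 15 tested endoderm genes 2 fell and none rose, beside 1.86% and 1.97% of all genes. The median was -0.73, and all 7 marker genes had negative differences. Between the inhibitors 4 of the 15 were lower under SB431542 and none higher, beside 224 and 188 of all 12608 genes. Their inhibitor median was -0.81. Dab2, an endocytic adaptor of primitive endoderm, had 1.94 and 3.03 TPM in activin A HMCES-KO libraries and 2.9 and 4.11 TPM in activin A WT libraries, against 8.15 and 9.34 TPM in BMP4 HMCES-KO libraries and 14.25 and 15.6 TPM in BMP4 WT libraries (-1.67 ± 0.20, limma adjusted p = 0.0034). Gata6, the transcription factor of that lineage, was also lower (-0.91 ± 0.18, limma adjusted p = 0.032, lost without any 1 library other than BMP4 KO2, up to 0.13). The other marker genes Sox17 (-1.27), Foxa2 (-1.02), Amn (-0.91), Cubn (-0.83) and Gata4 (-0.83) did not pass. Dab2 was lower in SB431542 minus LDN193189 too (-1.31 ± 0.22, limma adjusted p = 0.0038).

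Of 10 tested trophectoderm genes 3 rose (Tfap2c, Tead4, Krt8) and none fell, beside 1.97% and 1.86% of all genes. The median was 0.63. Between the inhibitors 1 of the 10 was higher under SB431542 and none lower, beside 188 and 224 of all 12608 genes. Their inhibitor median was 0.58. Tfap2c, an AP-2 transcription factor that embryonic stem cells also express, had 48.3 and 63.8 TPM in activin A HMCES-KO libraries and 59.7 and 57.1 TPM in activin A WT libraries, against 20.3 and 40 TPM in BMP4 HMCES-KO libraries and 17.8 and 21.5 TPM in BMP4 WT libraries (1.23 ± 0.20, limma adjusted p = 0.014, up to 0.077 without activin A KO2 or any 1 of the WT libraries). The defining trophectoderm marker Cdx2 did not pass (0.27 ± 0.52, limma adjusted p = 0.84), and the 3 of 4 trophectoderm markers in both tables summed to 3.94 to 7.62 TPM under activin A and 1.61 to 14.6 TPM under BMP4. The calls of Tead4 (0.67 ± 0.14) and Krt8 (0.58 ± 0.11) were lost without any 1 of the WT libraries and without activin A KO1 or KO2, Tead4 also without BMP4 KO1 (up to 0.14). None of 14 primitive streak and mesoderm genes passed (median 0.39), and Tubb3 was the 1 call among 4 tested neuroectoderm genes (-0.54 ± 0.09, limma adjusted p = 0.020, up to 0.096 without any 1 of the WT libraries).

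Immediate early genes, which respond to signalling within minutes, rose in 7 of 20 cases and fell in 1 (Atf3), beside 1.97% and 1.86% of all genes. Their median was 0.47. Junb, an AP-1 subunit, had 634 and 650.5 TPM in activin A HMCES-KO libraries and 625 and 595 TPM in activin A WT libraries, against 291 and 417 TPM in BMP4 HMCES-KO libraries and 352 and 276.5 TPM in BMP4 WT libraries. The 4 activin A libraries were all above the 4 BMP4 libraries (0.92 ± 0.12, limma adjusted p = 0.0048). Zfp36 (1.14 ± 0.20), Gadd45b (0.91 ± 0.14) and Dusp1 (0.54 ± 0.11) were called as well. The count of rises was 3 without activin A KO2, activin A WT 1 or activin A WT 2, 4 without activin A KO1 and 2 without BMP4 WT 1 or BMP4 WT 2, while Junb and Btg2 kept their calls without any 1 library. Adjusted p reached 0.10 for Zfp36, 0.067 for Gadd45b and 0.15 for Dusp1 without 1 library. Between the inhibitors 5 of the 20 genes were higher under SB431542 and 2 lower, beside 188 and 224 of all 12608 genes. Their median was 0.07, and the inhibitor differences were 0.78 for Junb, 0.86 for Zfp36, 0.86 for Gadd45b and 0.85 for Dusp1.

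Targets of p53, the transcription factor of the DNA damage response, rose in 7 of 14 cases and fell in none, beside 1.97% and 1.86% of all genes. Their median was 0.32. Perp, a desmosomal p53 target, had 83.1 and 120.5 TPM in activin A HMCES-KO libraries and 137 and 134 TPM in activin A WT libraries, against 33.6 and 52 TPM in BMP4 HMCES-KO libraries and 59.6 and 52.95 TPM in BMP4 WT libraries. No activin A library overlapped a BMP4 library (1.25 ± 0.16, limma adjusted p = 0.0046). The antiproliferative Btg2 (0.93 ± 0.09), Trp53inp1 (0.75 ± 0.12), the kinase Plk2 (0.65 ± 0.14), the p53 ubiquitin ligase Mdm2 (0.45 ± 0.07), Ccng1 (0.42 ± 0.09) and Phlda3 (0.37 ± 0.08) were also called. Perp and Btg2 kept their calls without any 1 library. The count of rises was 2 without any 1 of the WT libraries and 4 without activin A KO2. Adjusted p reached 0.095 for Trp53inp1, 0.14 for Plk2, 0.069 for Mdm2, 0.17 for Ccng1 and 0.17 for Phlda3. In SB431542 minus LDN193189 7 of 14 p53 targets were called higher and none lower, beside 188 and 224 of all 12608 genes.

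In the remaining lists few genes passed, beside 1.97% of all genes higher and 1.86% lower. Of 12 sterol synthesis genes 2 rose (Hmgcs1, 0.59 ± 0.11, and Insig1, 0.40 ± 0.07), and of 12 heat shock and unfolded protein genes Xbp1 rose (0.61 ± 0.13) and Herpud1 fell. The calls of Hmgcs1, Insig1 and Xbp1 were lost without any 1 of the WT libraries, Hmgcs1 also without activin A KO1 or KO2, Insig1 without activin A KO1 and Xbp1 without activin A KO2 or BMP4 KO1 (up to 0.14). No FGF-ERK feedback gene of 13 passed, and Sp5 was the 1 call among 10 Wnt targets. Of 9 germline genes Prdm14 was called, and of 3 fibroblast genes and 2 genes of the 2-cell-like state none was.

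By genotype, 70 genes told the ligands apart in HMCES-KO cells and 263 in WT cells. In HMCES-KO cells 21 were higher under activin A (0.168%) and 49 lower (0.392%). In WT cells 129 were higher (1.03%) and 134 lower (1.07%). The spread was wider in HMCES-KO cells, where differences between the 2 libraries of a group had an SD of 0.493 under activin A and 0.553 under BMP4, against 0.422 under activin A and 0.43 under BMP4 in WT cells. The fit pooled the residual variance of each gene over all groups. The HMCES-KO spread therefore entered the standard errors of both genotypes alike. Its part in the smaller HMCES-KO count was not tested. The HMCES-KO count was 230 with the replicate block, 7 without activin A KO1, 10 without activin A KO2, 22 without activin A WT 1 or activin A WT 2, 16 without BMP4 WT 1 or BMP4 WT 2 and 165 without BMP4 KO2. The WT count was 18 without activin A WT 1, 24 without activin A WT 2, 12 without BMP4 WT 1, 8 without BMP4 WT 2, 493 without BMP4 KO1 and 506 without BMP4 KO2. The test of the difference between genotypes itself called Lefty2 alone. A block for the HMCES-KO line alone, which leaves WT libraries unpaired, was chosen after seeing the data. With it 326 genes were called in HMCES-KO cells, 807 in WT cells and 42 for the difference between genotypes.

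The genotypes shared 39 genes called with the same sign, which is 55.7% of the HMCES-KO calls and 14.8% of the WT calls, and Lefty2 was called with opposite signs. Of the 70 HMCES-KO calls, 65 had the same sign in WT cells (92.9%), and of the 263 WT calls, 218 had the same sign in HMCES-KO cells (82.9%), beside 58.7% of all genes. Across the 12500 genes the differences in the 2 genotypes had a Pearson r of 0.235, as a description. Chac1, Nupr1, G0s2, Socs3, Trib3, Atf4, Bcl3 and Snai3 were called in both. Chac1, Socs3 and Trib3 kept both calls without any 1 library. Nupr1 lost its HMCES-KO call without activin A KO1, activin A KO2 or BMP4 KO1 (up to 0.13) and its WT call without activin A WT 2, BMP4 WT 1 or BMP4 WT 2 (up to 0.12). Snai3 lost them without activin A KO1 or KO2 (up to 0.0995) and without activin A WT 1 or BMP4 WT 1 (up to 0.080), G0s2 its HMCES-KO call without activin A KO1 (0.067) and Atf4 its WT call without BMP4 WT 2 (0.051). Bcl3, a nuclear IkappaB protein, had 142 and 159 TPM in activin A HMCES-KO libraries and 145 and 151 TPM in activin A WT libraries, against 56.6 and 75.1 TPM in BMP4 HMCES-KO libraries and 53.4 and 48.7 TPM in BMP4 WT libraries. Its difference was 1.19 ± 0.14 in HMCES-KO cells (limma adjusted p = 0.015, up to 0.11 without activin A KO1 or KO2) and 1.52 ± 0.14 in WT cells (limma adjusted p = 0.0027, and 0.054 without BMP4 WT 2).

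**Figure D4:**
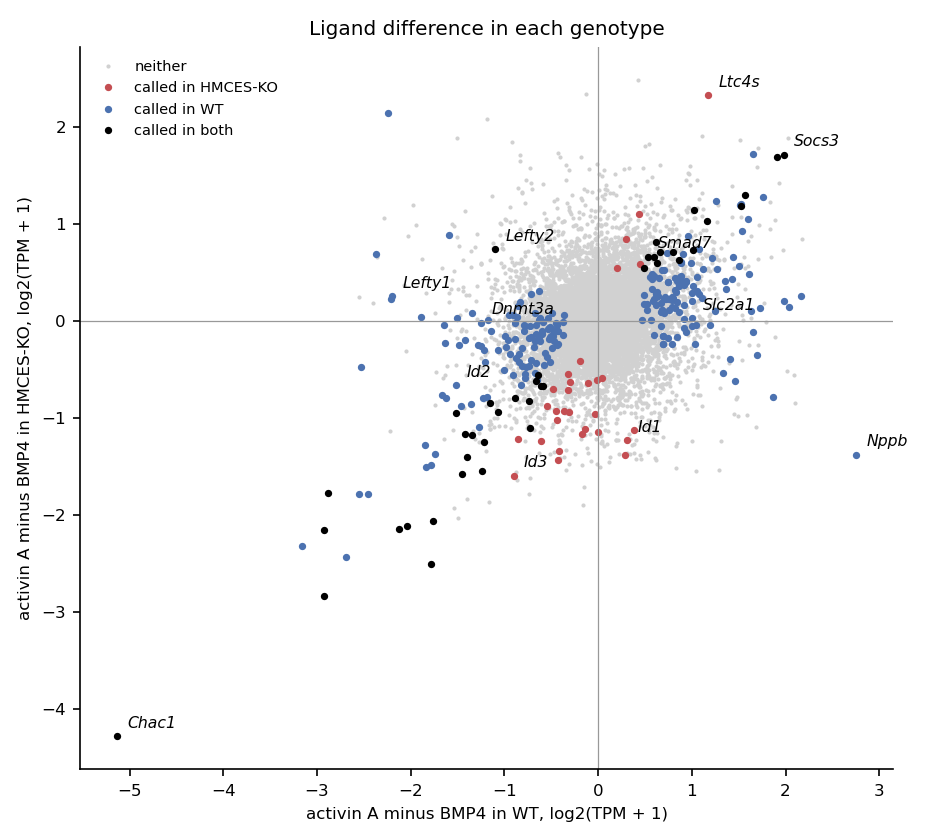
Each point is a gene, with activin A minus BMP4 in WT cells on the x axis and in HMCES-KO cells on the y axis (log2(TPM + 1)). Red points were called in HMCES-KO cells, blue points in WT cells and black points in both, 40 genes of which 39 have the same sign and Lefty2 lies in the upper left quadrant.

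Of the 5 largest WT rises, Socs3 rose in HMCES-KO cells as well. The other 4 had no HMCES-KO call, and none of them passed the interaction test without the replicate block. Nppb, the B-type natriuretic peptide precursor, had 1.52 and 0.791 TPM in activin A HMCES-KO libraries and 18.4 and 9.66 TPM in activin A WT libraries, against 3.93 and 5.17 TPM in BMP4 HMCES-KO libraries and 0.797 and 1.53 TPM in BMP4 WT libraries. The activin A WT libraries were the high ones (2.75 ± 0.38 in WT cells, limma adjusted p = 0.011, against -1.38 ± 0.38 in HMCES-KO cells, limma adjusted p = 0.18, with an interaction of -4.13 ± 0.54, limma adjusted p = 0.077, and 0.040 with the replicate block). Ptger2 (2.17 ± 0.41), Izumo4 (2.03 ± 0.27) and Irx2 (1.98 ± 0.24) were called in WT cells, and their HMCES-KO differences were 0.26 ± 0.41, 0.14 ± 0.27 and 0.21 ± 0.24. Each of these WT calls was lost without any 1 of the WT libraries, except that of Nppb without activin A WT 2, with adjusted p up to 0.25.

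Of 14 hypoxia and glycolysis genes 3 rose in the mean (Aldoa, Hk2, Slc2a1) and 2 fell (Ldha, Vegfa), beside 1.97% and 1.86% of all genes. Slc2a1 kept its mean call without any 1 library. The count was 1 rise and 0 falls without activin A WT 2, BMP4 WT 1 or BMP4 WT 2, 1 rise and 1 fall without activin A KO2, 2 rises and 0 falls without activin A WT 1, 3 rises and 0 falls without activin A KO1, and 3 rises and 1 fall without BMP4 KO1. Slc2a1, the glucose transporter GLUT1, had 402 and 463 TPM in activin A HMCES-KO libraries and 696.5 and 802 TPM in activin A WT libraries, against 427 and 417 TPM in BMP4 HMCES-KO libraries and 374 and 371 TPM in BMP4 WT libraries. Its HMCES-KO groups lay together and the activin A WT libraries above all others (1.00 ± 0.10 in WT cells, limma adjusted p = 0.0033, up to 0.067 without BMP4 WT 1 or WT 2, against 0.03 ± 0.10 in HMCES-KO cells, with an interaction of -0.97 ± 0.14, limma adjusted p = 0.086, and 0.034 with the replicate block). The glycolytic enzyme Aldoa had the same order (0.82 ± 0.11 in WT cells, limma adjusted p = 0.011, up to 0.14 without activin A WT 2, BMP4 WT 1 or BMP4 WT 2, against 0.13 ± 0.11 in HMCES-KO cells). Vegfa, the endothelial growth factor of the same hypoxia and glycolysis list, had 10.2 and 9.93 TPM in activin A HMCES-KO libraries and 21.95 and 23.4 TPM in activin A WT libraries, against 28.1 and 20.1 TPM in BMP4 HMCES-KO libraries and 24.5 and 26.7 TPM in BMP4 WT libraries. Here the activin A HMCES-KO libraries were the low ones (-1.16 ± 0.20 in HMCES-KO cells, limma adjusted p = 0.044, lost without any 1 library other than BMP4 KO2, up to 0.21).

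Dnmt3a, a de novo DNA methyltransferase, was the 1 call in the mean among 13 formative and primed genes, beside 1.86% of all genes lower. It had 15.1 and 15.85 TPM in activin A HMCES-KO libraries and 6.63 and 6.21 TPM in activin A WT libraries, against 14.5 and 16.9 TPM in BMP4 HMCES-KO libraries and 16.65 and 16.7 TPM in BMP4 WT libraries. The activin A WT libraries were the low ones (-1.25 ± 0.19 in WT cells, limma adjusted p = 0.0155, up to 0.15 without any 1 of the WT libraries, against -0.02 ± 0.19 in HMCES-KO cells), and the interaction did not pass (1.23 ± 0.27, limma adjusted p = 0.27). SB431542 WT libraries were likewise at 5.63 and 6.05 TPM, against 14.25 and 14.8 TPM in LDN193189 WT libraries. In HMCES-KO cells the largest rise was that of Ltc4s, leukotriene C4 synthase, which had 4.83 and 3.36 TPM in activin A HMCES-KO libraries and 10.9 and 7.89 TPM in activin A WT libraries, and was listed at 0 in both BMP4 HMCES-KO libraries, against 5.08 and 2.44 TPM in BMP4 WT libraries. Its HMCES-KO call (limma adjusted p = 0.032) was lost without each 1 of the 8 libraries, with adjusted p up to 0.145.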

How the data were processed

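RNA sequencing libraries of activin A and BMP4 treated cells were analysed, with the SB431542 and LDN193189 libraries for comparison. The deposited values are TPM, computed by the authors for each library separately, and the gene filter and length behind them are not given in the sources used here. The submitters' processing notes list DESeq2, featureCounts (2.0.1), Bowtie2 (2.3.3), SAMtools (1.9) and FastQC (0.11.5), with mm10 as the genome build. The authors' deposited count table of untreated cells served only for its gene lengths. Lengths derived from the treated TPM came within 5% of those for 13.1% of genes, so untreated levels were not compared. Its counts were not tested, and 4 other columns of values per sample were not used.

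The activin A and BMP4 tables list 13438 and 13468 genes. The 13146 genes in both hold 99.97% to 99.98% of the TPM, and each library was rescaled to 1000000 over them. Genes with at least 1 TPM in at least 2 libraries were fitted with limma 3.58.1 (R 4.3.3, trended prior) on log2(TPM + 1) in 4 groups of 2, with 4 residual degrees of freedom. Whole reads were recovered from the TPM for 100% of shared genes within 0.01 reads, and edgeR 4.0.16 on those reads was an alternative that called 739 genes in the mean. The recovered depth limits low genes, where a few reads decide a value. Libraries of 1 group correlated at 0.971 to 0.983, and no 2 libraries shared more than 0.472% of their values. On simulated data of the mean comparison (12305 genes) the fit recovered 81% of genes changed by 1 on the log2 scale and 98% of those changed by 2, and 4.79% of its calls were not changed. Changes were placed only in genes with a mean well above the filter. The simulated noise was independent between libraries, with no effect of table or knockout line. These shares are therefore not the sensitivity or error rate of the real calls.

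Same-numbered HMCES-KO libraries are of 1 knockout line. Deviations of same-numbered libraries from their group means correlated at 0.251 in HMCES-KO cells and -0.0154 in WT cells, so the numbers pair HMCES-KO libraries and not WT libraries. The members and all 25 gene lists were chosen with earlier results of these data known. Genes are named as the 10 largest rises and falls of the mean contrast among calls whose libraries do not overlap, the 5 largest each way among the calls of the other contrasts, all SMAD targets and SMADs, 2 to 4 members of other lists and Hmces. Junb, Zfp36, Gadd45b, Dusp1, Sesn2, Psat1, Mdm2, Ccng1, Phlda3, Epha2, Sox17, Gata4, Foxa2, Cubn, Amn, Cdx2 and Bcl3 in both genotypes were added after their values were seen or as markers, and leave-one-out values of those called were computed for the immediate early, stress response and p53 genes among them. Some genes that the rule names are not reported here. Promoter windows come from RefSeq (GRCm38.p6). Histone genes of the list were in neither ligand table as named and have no value here.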

Additional observations from a re-analysis of the deposited data

Results flagged for a closer look

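The ligand difference of Lefty2 differed between the genotypes, by 1.84 ± 0.15 on the log2(TPM + 1) scale (0.75 ± 0.11 in HMCES-KO cells and -1.10 ± 0.11 in WT cells, limma interaction, adjusted p = 0.0074). Reads may have been split with Lefty1. The part of such a split in the result was not tested. The part of the knockout lines and of single libraries was looked at only by the block and leave-one-out fits. Without the trended prior the Lefty2 call was lost.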

How the results depend on the processing

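The mean count of 479 genes was 50 without the trended prior, 739 with edgeR on recovered reads, 911 with the replicate block and 1136 with a block for the HMCES-KO line alone, which was chosen after seeing the data, and ran from 90 to 644 when 1 library was left out. In the same order of settings the HMCES-KO count of 70 was 1, 133, 230 and 326 (leave-one-out 7 to 165), and was 106 with all 16 treated libraries in the fit. The WT count of 263 was 17, 396, 628 and 807 (leave-one-out 8 to 506). The interaction count of 1 was 0, 15, 27 and 42 (leave-one-out 0 to 21), 14 with 16 libraries and 3 with log2(TPM + 5). The count for SB431542 minus LDN193189 of 412 was 248 without the trend and 789 with the block (leave-one-out 209 to 508), and that of the difference between the comparisons, 7, was 4 without the trend (leave-one-out 4 to 15). The cause of these changes was not tested. Leaving out a library leaves fewer samples, and counts both fell and rose in those fits. The other pseudocounts, filters and median ratio scaling left these counts within 1.5 times, and median ratio scaling moved the median of all genes by at most 0.0124. Without the trended prior 1 p53 target, 1 immediate early gene and no hypoxia gene passed, and 4 integrated stress response genes fell. In that setting no gene passed in the mean on the Nodal and activin, BMP, SMAD, family ligand, antagonist or trophectoderm lists. The same held for the general pluripotency, formative and primed, neuroectoderm, Wnt, sterol, and heat shock and unfolded protein lists. The mean calls of Id1, Id2, Id3, Smad7, Lefty1 and Nodal were thus lost. So were those of Dppa5a, Dnmt3a, Tubb3, Sp5, Hmgcs1, Insig1, Xbp1 and Herpud1. With genotype plus treatment as terms 1 hypoxia gene rose and none fell. No named result changed sign while called. WT libraries share only a number, so the block result in WT cells is no pairing. The depth of 4388597 to 5291657 reads limits genes near 1 TPM.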
